A study of Mus musculus and Homo sapiens with 22 samples.

Results

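The comparison was between RNA of the chromatin fraction of mouse embryonic stem (mES) cells probed inside living cells and the same kind of RNA probed after it had been purified and refolded. It rested on 2 of the 22 samples of the series, 1 in vivo and 1 in vitro. Members were the transcripts with at least 100 nucleotides scored in both deposited files, and 2072 of the 3158 transcripts present in both files met this minimum, out of 17092 mouse transcripts in any mES file. The cells were V6.5, an established line of pluripotent cells, grown on gelatin with the self-renewal factor LIF. For the in vivo sample, cells took up the probe NAI-N3 for 5 min at 37 °C and were then fractionated. For the in vitro sample, the chromatin fraction was isolated, its RNA was purified, denatured at 95 °C for 1 min, cooled, left for 5 min in a buffer of NaCl and HEPES (both 100 mM) with MgCl2 (6 mM), and probed for 5 min at 37 °C. No genotype or drug distinguished the samples, and the question was how the fold of an RNA at chromatin differs from the fold it takes alone.

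NAI-N3 acylates the 2′-hydroxyl of nucleotides whose backbone is flexible, and reverse transcription stops there. In icSHAPE the modified RNA is enriched through the azide before sequencing, and the score of a nucleotide runs from 0 (little or no reaction, typical of paired or shielded bases) to 1 (strong reaction, typical of loops and single strands). RNA bound to chromatin holds nascent transcripts, unspliced and intron-retaining RNAs, long noncoding RNAs held at their sites of action and small nuclear RNAs of the splicing machinery. In the cell an RNA meets proteins, helicases and ongoing transcription, all of which are removed before refolding. Proteins can cover a flexible base, and helicases or incomplete transcription can keep bases from pairing, so in vivo scores can lie on either side of the refolded ones.

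The files gave mouse transcript identifiers without gene names, and the reference tables held 0 of these identifiers, so transcripts are described by identifier, length and score pattern and no sequence is shown. For the same reason the labelled fraction and cell type could not be checked against marker RNAs. Each group had 1 file, so there is no replicate error and no test. Intervals printed below are exact Clopper-Pearson 95% intervals, or intervals from order statistics for medians. They cover only the counting of transcripts within these files, and since transcripts share genes and sequence they are too narrow. Members were between 136 and 20771 nt long, with a median of 1290 nt. A member had between 100 and 13426 nucleotides scored in both files, with a median of 488, and together they held 1921022 nucleotides, which was 79.0% of all scored nucleotides of the in vivo file and 97.0% of those of the in vitro file. Read depth behind the scores is unknown. The first 6 and last 30 nucleotides of every member carried no score.

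Within a transcript the same bases were scored in both files. This held for 3158 of 3158 shared transcripts, so each in vivo mean could be set beside an in vitro mean over identical positions. The scores were also tied to a ceiling. In 148 members with a score at every scorable nucleotide, 143 had between 4.5 and 6% of their scores at exactly 1 in both files. Among 253 members with at least 95% of scorable nucleotides scored, the median share of scores at 1 was 5.05% in vivo and 5.04% in vitro. Among 1129 members scored over less than 50% of their length, it was 1.47% in vivo and 2.57% in vitro. With a like share of bases at the ceiling, a mean score tells how the other bases of a transcript compare with its own top in that file. The way the ceiling was set by the authors is not given in the sources at hand.

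Most chromatin transcripts had a higher mean score in vivo than after refolding. The mean was higher in vivo in 1382 of 2072 members, or 66.7% (64.6 to 68.7), beside 60.4% of all 3072 transcripts with at least 1 shared scored nucleotide. The median transcript mean was 0.191 in vivo and 0.169 in vitro. The median difference was 0.0264 (0.0233 to 0.0295), and the median ratio was 1.16 (1.14 to 1.18). The middle 90% of transcript means ran from 0.0613 to 0.299 in vivo and from 0.0991 to 0.223 in vitro. These means thus spread more widely in vivo (SD over transcripts 0.0727) than in vitro (0.0368). In the 1129 members with the smallest scored shares, a median of 1.47% of scores lay at the ceiling in vivo and 2.57% in vitro. The part of this scaling in the wider spread of means was not tested.

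The spread in vivo reached in both directions, as the plot of transcript means shows. At least 1.5 times higher in vivo were 278 members (13.4%, beside 12.2% of all transcripts) and at least 1.5 times lower were 259 (12.5%, beside 14.8%), shares close to those of all transcripts. The direction of the mean was the same over odd and over even nucleotides in 91.9% of members (90.7 to 93.1), and the gap between the odd and the even difference had a median of 0.0111. Odd and even bases are interleaved and correlated, so this is a check within the files and no measure of replicate error. Single bases were less uniform: in the median member, 61.6% of the nucleotides that differed were higher in vivo.

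**Figure D1:**
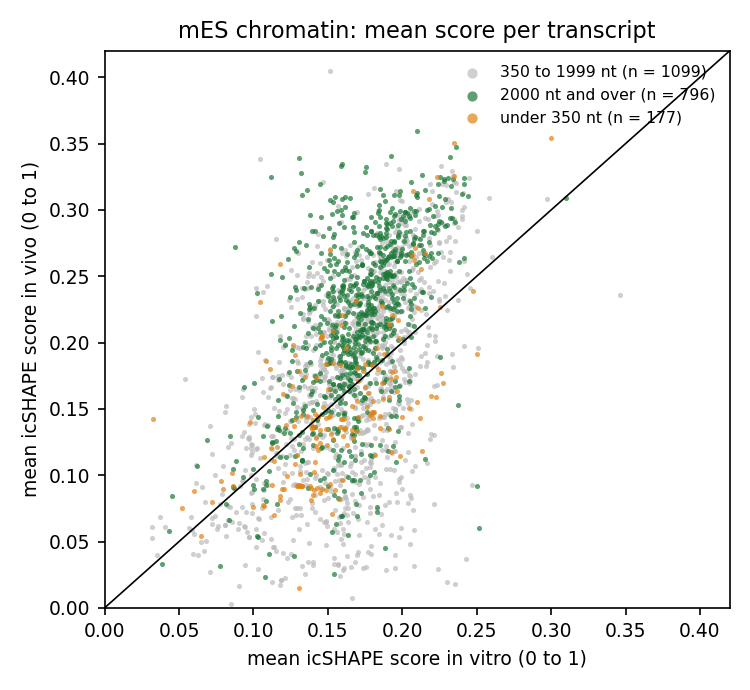
Mean icSHAPE score of each of the 2072 transcripts in vitro (x axis) and in vivo (y axis), both from 0 to 1 and over the same nucleotides, with colours for transcript length and the line of equal values. The in vivo means spread more widely than the in vitro means, and most transcripts of at least 2000 nt lie above the line while many under 350 nt lie on or below it.

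The direction depended on the scale on which scores were read. When each score was replaced by its rank among all scored nucleotides of its file, the mean rank was higher in vivo in 45.4% of members (43.2 to 47.5), beside 33% of all transcripts. Over nucleotides above 0 in both files, the mean was higher in vivo in 48.4% (46.2 to 50.5), beside 47% of the 3068 transcripts with such a nucleotide. Of the 1621 members with at least 100 such nucleotides, 52% (49.5 to 54.5) were higher in vivo. When each transcript was scaled to its own 95th percentile in each file, 85.8% were higher in vivo. A majority higher in cells was thus found with the deposited scores and with rescaling to the transcript's own top, and not with ranks or with zeros removed from all members. Ranks have the same average over each whole file, so a shift of a file as a whole cannot show on that scale. Members held 79.0% of the nucleotides ranked in vivo and 97.0% of those ranked in vitro. Removing zeros left out bases at 0 in a single file, and more of these were at 0 in vitro. By all of the first 3 scales 744 members were higher and 654 lower, while 444 were higher by score and lower by rank and 2 the reverse.

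The files differed widely in their zeros. A zero was rarer in vivo in 1917 of 2072 members, or 92.5% (91.3 to 93.6). The median member had 20.5% of its scores at 0 in vivo and 43.2% in vitro. Among the 1921022 nucleotides, 28.3% were 0 only in vitro, 6.14% only in vivo and 13.2% in both. Refolded RNA therefore carried many bases listed at 0 that had a score in the cell, and these scores were low: nucleotides at 0 in vitro had a median score of 0.055 in vivo. Over all nucleotides, 54.6% scored higher in vivo, 31.01% lower and the others were equal. Among nucleotides above 0 in both files the split was almost even, with 50.3% higher in vivo. This choice leaves out the 28.3% at 0 only in vitro, all of them higher in vivo, and the 6.14% at 0 only in vivo, all of them lower. It thus removes more bases that were higher in vivo than lower.

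Reactive bases in one state were often less reactive in the other. Of 235975 nucleotides with a score of at least 0.5 in vitro, 48.5% reached 0.5 in vivo and 4.00% were 0 in vivo. In the opposite sense, 35094 of 277037 nucleotides with at least 0.5 in vivo were 0 in vitro, or 12.7%. A base open in the cell was thus listed at 0 after refolding more often than the reverse, in files whose overall shares of zeros also differed (19.3% in vivo and 41.4% in vitro over these nucleotides). Bases at the ceiling in 1 state were mostly below it in the other: those at 1 in vitro had a median of 0.701 in vivo, and those at 1 in vivo had a median of 0.697 in vitro.

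Profiles of the same transcript resembled each other in part. Pearson's r between the in vivo and in vitro scores across a transcript's nucleotides had a median of 0.531 (0.524 to 0.538) over 2072 members, exceeded 0.7 in 202 and was below 0.3 in 121. Nucleotides within a transcript are not independent, and per the series' design text both scores were calculated with solvent-control samples, so r is a description. Reactivity was spread more evenly in the cell. The Gini index, which is 0 when all nucleotides have equal scores and rises as few nucleotides hold most of the score, had a median of 0.603 in vivo and 0.706 in vitro and was higher in vivo in 13.3% of members (11.9 to 14.9). With zeros of either file left out, 32.1% of members had the higher index in vivo, and with ranks 62.6%.

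Runs of zeros were more numerous after refolding and runs of reactive bases more numerous in cells. Runs of at least 10 consecutive zeros numbered 4093 in vitro and 1243 in vivo, and the longest run of zeros in a member had a median of 11 nt in vitro and 7 nt in vivo. Runs of at least 20 zeros were closer in number, 189 in vitro and 138 in vivo, and the longest of all had 50 nt in both. Zeros made up 41.4% of these nucleotides in vitro and 19.3% in vivo, and their part in the runs was not tested. Runs of at least 5 nt with every score at 0.5 or more numbered 5647 in vivo and 3820 in vitro, and those of at least 10 nt numbered 315 and 104. Per transcript the longest such open run showed no preferred side, being longer in vivo in 825 members and in vitro in 834.

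Scores of neighbouring bases were correlated over a longer distance in cells. In 1022 members with at least 500 shared nucleotides, the median correlation between a base and the next was 0.436 in vivo and 0.356 in vitro. At 10 nt it was 0.0498 in vivo and 0.0126 in vitro. The difference between the states had structure of its own: the profile of in vivo minus in vitro had a median correlation of 0.216 with itself 1 nt on, 0.0801 at 10 nt and 0.0467 at 20 nt. At 1 nt this was below the values of both score profiles, and at 10 and 20 nt it was above them.

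By mean score, the share of transcripts higher in cells was smallest in the shortest class and largest in the longest. The share of members higher in vivo was 25.3% (17.1 to 34.98; n = 99) under 200 nt, 60.3% (48.5 to 71.2; n = 78) from 200 to under 350 nt and 53.2% (49.6 to 56.9; n = 742) from 350 to under 1000 nt. It was 72.3% (67.3 to 76.9; n = 357) from 1000 to under 2000 nt, 80.5% (77.1 to 83.6; n = 615) from 2000 to under 5000 nt and 89.5% (84.1 to 93.6; n = 181) at 5000 nt and over. The neighbouring classes between 200 and 1000 nt did not differ beyond their intervals. On the rank scale the percents were lower in every class, from 2.02% under 200 nt to 79.6% at 5000 nt and over, and each class lay above the one before.

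Over nucleotides above 0 in both files the classes lay closer together. Those percents ran from 45.5% under 200 nt through 37.3% from 350 to under 1000 nt to 66.9% at 5000 nt and over, as the plot by length shows. In transcripts of at least 5000 nt, a majority was thus higher in vivo on each of the 3 scales. The median means of this longest class were 0.241 in vivo and 0.175 in vitro, and its median shares of zeros were 17.1% and 46.3%.

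**Figure D2:**
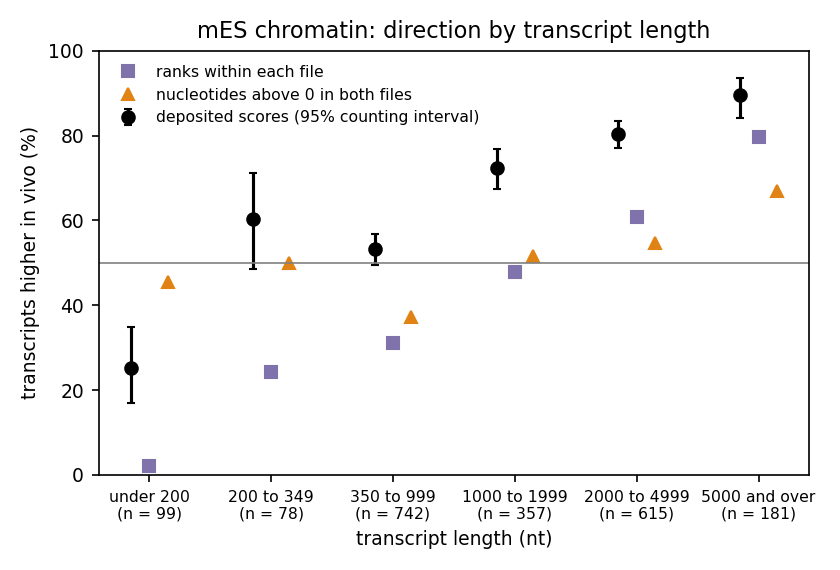
Percent of transcripts whose mean was higher in vivo (y axis) in 6 classes of transcript length in nucleotides (x axis, with the number in each), by deposited score (points with the 95% counting interval), by rank within each file and over nucleotides above 0 in both files. By score it was 25.3% under 200 nt and 89.5% at 5000 nt and over, and the line marks 50%. With a minimum of 50 scored nucleotides, the value under 200 nt was 48.4%.

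The length difference was sharper where transcripts were scored almost throughout. Among members with at least 95% of scorable nucleotides scored, 123 of 132 transcripts of 350 nt and over were higher in vivo, or 93.2% (87.5 to 96.8), with 68.9% by rank and 83.3% over nucleotides above 0. Among 121 shorter ones, 28.9% (21.1 to 37.9) were higher in vivo, with 4.13% by rank and 47.1% above 0. In this set the share of scores at 1 was near 5% in both files, so the ceiling lay inside the scored stretch on both sides. The set was chosen after values had been seen. From 350 to under 1000 nt the value differed most with scored share: 40.3% of 300 members scored over 25 to 49% of their length were higher in vivo and 91.5% of 71 members scored over 95 to 100%.

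Abundance moved with length and direction. The deposited abundance value, in a unit not given in the sources used here, had a median of 2320 in vivo in members under 200 nt and of 24.4 in those of at least 5000 nt. Among members under 350 nt, the mean score was higher in vivo in 70.6% of 51 with an in vivo abundance under 100, in 30.95% of 42 from 100 to under 1000 and in 27.4% of 84 at 1000 and over. Among members of 350 nt and over, the values were 69.3% of 1723, 69.6% of 158 and 42.9% (17.7 to 71.1) of 14. The share in short members of low abundance (interval 56.2 to 82.5) was thus near that in long ones. These short members had a median length of 294 nt and a median of 69.8% of bases scored. The more abundant short groups had median lengths of 146.5 and 165 nt with 100% scored, so length, scored share and abundance differed together. By rank, 0 of 84 short and 0 of 14 long members with an abundance of at least 1000 were higher in vivo. The part of abundance in the length difference was not tested.

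The ratio of the abundance values also moved with direction. With members in 5 equal groups from the lowest to the highest in vivo to in vitro ratio, 45.3%, 54.4%, 66.7%, 83.1% and 84.1% of members were higher in vivo. In the lowest group the ratio was at most 0.878 and the median share of zeros was 33.2% in vivo, and in the highest it was at least 1.77 and the share was 13.4%. The in vitro share of zeros stayed between 42.2% and 44.7% across the 5 groups. Among members with abundance values within 1.5 times of each other, 59.2% were higher in vivo. The part of abundance in these values was not tested.

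The transcripts with the widest gaps showed different patterns on the 2 sides. The 8 highest and 8 lowest were chosen for their difference and for having the same direction on all 3 scales and in odd and even bases, so their values are a description. Highest was ENSMUST00000171473, 1630 nt long with 350 scored bases, at 0.405 in vivo and 0.151 in vitro. Its scores were at 1 in 17.7% of bases in vivo and 4.00% in vitro, and at 0 in 16% and 45.1%. Next came ENSMUST00000180288, 1256 nt long with 385 scored bases, at 0.338 in vivo and 0.105 in vitro, whose profiles had r = 0.714. In all 8 the ratio lay between 2.32 and 3.23. Over nucleoplasm's own scored bases 8 of 8 were also higher in vivo, beside 64.7% of all 8608 nucleoplasm transcripts with at least 100 shared nucleotides. In cytoplasm the 6 scored there were higher too, beside 87.2% of all 5673. The nucleoplasm gap was small in ENSMUST00000099151 (0.202 in vivo and 0.200 in vitro).

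At the other end, ENSMUST00000106588, 640 nt long with 121 scored bases, had 0.0179 in vivo and 0.235 in vitro. ENSMUST00000177163, 544 nt long with 129 scored bases, had 0.0195 in vivo and 0.230 in vitro. Both had no score at 1 in vivo, beside 4.96% and 7.75% in vitro, while their profiles had r = 0.477 and 0.527 and their shares of zeros were 40.5% and 41.9% in vivo and 36.4% and 31.01% in vitro. Their profiles were thus about as alike as those of the median member. Scaled to their own 95th percentiles, they had 0.290 in vivo and 0.236 in vitro, and 0.219 and 0.230, so the first turned and the gap of the second nearly closed.

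Of the 8 lowest members, 7 had no score at 1 in vivo. In the nucleoplasm pair 3 of the 7 scored there were lower in vivo, and in the cytoplasm pair 1 of 7. Over all transcripts of those pairs with at least 100 shared nucleotides, 64.7% and 87.2% were higher in vivo. Each fraction's mean covered its own scored bases, so these counts do not show whether the same bases differed. ENSMUST00000106588, for example, had 0.218 in vivo and 0.137 in vitro in nucleoplasm over 404 bases, beside 121 scored in chromatin. In the 8 lowest members between 8.48 and 36.2% of scorable bases were scored in chromatin. Windows of the same bases are compared between fractions below.

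Very long transcripts with the most scored bases were uniform. The 5 members with the most shared nucleotides, between 9420 and 13426, all had a higher mean in vivo, by 0.0494 to 0.0861, and by rank and above 0 as well. In ENSMUST00000174189, 14369 nt long with 13426 scored bases, the mean was 0.278 in vivo and 0.212 in vitro, the share of zeros 13.7% and 32.7%, and r between the profiles was 0.628. Its odd and even bases gave differences of 0.0668 and 0.0656. In nucleoplasm the same 5 transcripts were all slightly lower in vivo; ENSMUST00000174189 had 0.219 in vivo and 0.227 in vitro there.

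The most abundant members gave other values. ENSMUST00000083936, 214 nt long, had the highest abundance value of any member in both files (51637 in vivo and 71764 in vitro) and means of 0.135 in vivo and 0.149 in vitro. ENSMUST00000192833, 3329 nt long and fully scored, was the most abundant long member, with 29027 in vivo and 49756 in vitro. Its mean was 0.136 in vivo and 0.167 in vitro, and unlike most long members it had more zeros in vivo, 42.9% beside 27.8%. Values in the other fractions were alike, with 0.130 and 0.169 in nucleoplasm and 0.137 and 0.162 in cytoplasm.

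Not every abundant RNA was lower in vivo by mean score. ENSMUST00000093738, 216 nt long and with an abundance value of 42930 in vivo and 60679 in vitro, had 0.206 in vivo and 0.146 in vitro. By mean rank it was lower in vivo, with 0.423 beside 0.452. Its nucleoplasm and cytoplasm values went the other way (0.109 and 0.141 in nucleoplasm, 0.123 and 0.140 in cytoplasm). It stood for a family of 4 members that shared, over 60 nt in both files, which bases were zero and which were not. In vivo all 4 lay from 0.203 to 0.206, and in vitro from 0.145 to 0.146.

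By mean score, short transcripts went in either direction, by length. By rank, 0% of members were higher in vivo at each of the lengths given here. Of 14 members of 164 nt, 0 were higher in vivo, which allows a share of up to 23.2%, with median means of 0.0920 in vivo and 0.132 in vitro. Of 13 members of 191 nt, 1 was higher in vivo, with medians of 0.146 and 0.179, and zeros made up 50.97% of their scores in vivo and 38.1% in vitro. Of 7 members of 216 nt, 5 were higher in vivo, with medians of 0.203 and 0.145. At other lengths with at least 7 members, 1 of 8 was higher in vivo at 136 nt, 4 of 8 at 137 nt, 4 of 7 at 144 nt and 1 of 8 at 165 nt. Equal length with near-equal scores can mean copies of a gene that share reads, so these counts are not counts of independent RNAs: the 14 transcripts of 164 nt formed 11 pattern families, the 13 of 191 nt formed 7 and the 7 of 216 nt formed 4, while each transcript of 136, 137 and 144 nt had a pattern of its own.

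The largest pattern family held 10 transcripts between 483 and 6983 nt, represented by ENSMUST00000172812. Its members had means from 0.154 to 0.303 in vivo and from 0.128 to 0.237 in vitro, and 9 of 10 were higher in vivo. With 1 transcript per family, the share of members higher in vivo was 66.9% over 2048 families, so shared patterns moved it little.

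Local differences were larger than those of whole transcripts. Members were cut into 82259 windows of 20 scored nucleotides in a row, of which 65.4% were higher in vivo. The difference was at least 0.2 upward in 7223 windows (8.78%) and at least 0.2 downward in 1799 (2.19%). Upward windows occurred in 1037 transcripts, downward windows in 679 and both in 372. Of all windows, 27.7% went against the direction of their transcript's mean, and the SD of window differences was 0.118 in all and 0.106 around the transcript means. With a difference of at least 0.2 in rank, 7.60% of windows were upward and 6.33% downward. A step of 0.2 in rank is not the same size as 0.2 in score, and ranks cannot show a shift of a whole file. The shares on the rank and score scales therefore cannot be compared directly.

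Windows with the widest gaps showed both directions within a transcript. In ENSMUST00000138502, 3706 nt long, nucleotides 247 to 266 averaged 0.772 in vivo and 0.067 in vitro, with 0 and 12 zeros. Over its whole length the mean was lower in vivo (0.112 and 0.215). The same transcript had nucleotides 1467 to 1486 at 0.224 in vivo and 0.759 in vitro, one of the 6 widest decreases. In ENSMUST00000150161, 3087 nt long, nucleotides 2047 to 2066 averaged 0.147 in vivo and 0.744 in vitro, although the whole transcript was higher in vivo (0.210 and 0.174). As the plot of these profiles shows, the states shared a peak before the window in ENSMUST00000150161 and had unequal peaks after it, and in ENSMUST00000138502 in vivo scores exceeded in vitro scores at most bases around the window as well.

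**Figure D3:**
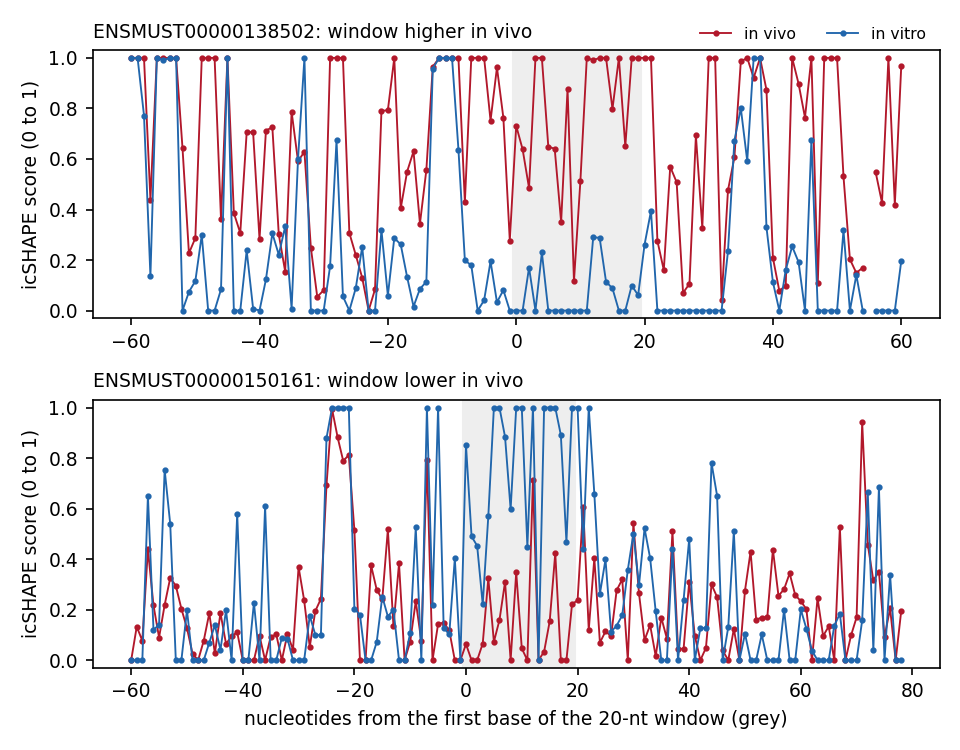
icSHAPE score from 0 to 1 (y axis) by nucleotide from the first base of a 20-nt window (x axis, window in grey) in vivo and in vitro, for the window with the widest increase (ENSMUST00000138502, means 0.772 and 0.067) and with the widest decrease in vivo (ENSMUST00000150161, means 0.147 and 0.744). Gaps in the lines are nucleotides without a score.

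The same windows differed in the same direction in the other nuclear fraction. Nucleoplasm and cytoplasm had their own in vivo and in vitro files, which were not used to choose the windows. In nucleoplasm, 6879 of the 7223 upward windows were scored, and 89.0% of them were higher in vivo there, beside 46.6% of all 66774 windows scored there. Of 934 downward windows scored there, 95.2% were lower in vivo, beside 53.4% of all, and 55.7% were lower by at least 0.2, beside 3.74% of all. Their mean difference was -0.211 in nucleoplasm and -0.263 in chromatin, and that of upward windows was 0.109 and 0.273. All windows averaged -0.00935 in nucleoplasm and 0.0582 in chromatin, so the fractions were also shifted against each other as a whole, and 934 of the 1799 downward windows were scored in nucleoplasm.

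In cytoplasm the downward windows were less alike. Upward windows were higher in vivo in 92.9% of 4580, beside 68.1% of all 36890, with a mean difference of 0.137. Downward windows were lower in vivo in 69.8% of 411, beside 31.8% of all, with a mean difference of -0.0735. Windows overlap between transcripts of a gene and neighbouring windows are correlated, so these shares carry no test. In ENSMUST00000150161 the downward window had 0.244 in vivo and 0.683 in vitro in nucleoplasm, and in ENSMUST00000138502 the upward window had 0.340 and 0.150 in nucleoplasm and 0.228 and 0.125 in cytoplasm.

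**Figure D4:**
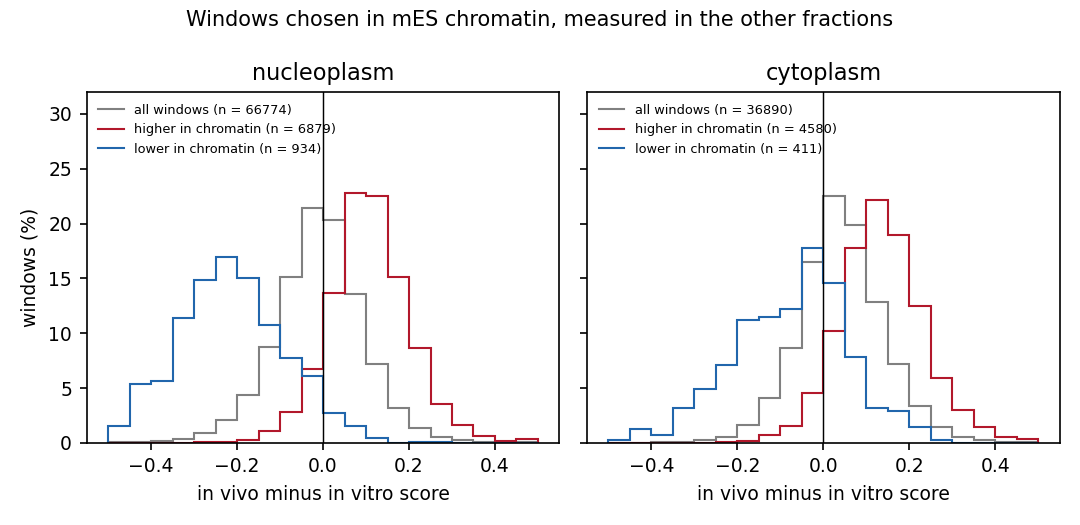
Percent of windows (y axis) by the in vivo minus in vitro difference in mean score (x axis, bins of 0.05, with values beyond 0.5 in the end bins) in nucleoplasm and cytoplasm, for all windows and for those that were higher or lower in vivo by at least 0.2 in chromatin. In nucleoplasm the downward windows lie almost wholly below 0 (95.2%) and the upward windows mostly above it (89.0%).

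Many whole transcripts differed in direction between chromatin and nucleoplasm even so. In 1573 members with at least 100 nucleotides scored in both fractions' files, the profiles of the difference had a median correlation of 0.344 across nucleotides, and the correlation was above 0 in 99.4%. Over these nucleotides 76.5% were higher in vivo in chromatin and 39.6% in nucleoplasm. In vivo means were higher in both fractions in 584 members and lower in both in 330. Another 620 were higher in chromatin while lower in nucleoplasm, with 39 the reverse. The nucleoplasm direction turned with the set: over all 8608 nucleoplasm transcripts with at least 100 shared nucleotides, 64.7% (63.6 to 65.7) had higher means in cells. In 937 members shared with cytoplasm, the median correlation was 0.317, and 85.9% were higher in vivo in chromatin and 82.4% in cytoplasm.

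Over 855709 nucleotides of 937 transcripts scored in all 6 mES files, chromatin had the highest median in vivo and the lowest in vitro. The median transcript had 0.239 in vivo and 0.173 in vitro in chromatin, 0.197 and 0.189 in nucleoplasm, and 0.214 and 0.174 in cytoplasm. The mean was higher in vivo in 85.9% (83.5 to 88.1), 58.6% (55.4 to 61.8) and 82.3% (79.7 to 84.7) of them, so the intervals of chromatin and cytoplasm overlapped. By rank the order changed to 75.7%, 55.9% and 44.9%. Zeros moved with these values: their median share was 13.8% in vivo and 43.5% in vitro in chromatin, 23.8% and 25.5% in nucleoplasm, and 19.2% and 33.8% in cytoplasm. Their part in the order was not tested.

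The difference between the states varied with position. In 1725 members of at least 500 nt, the last scored stretch, from 31 to 50 nt before the end, had a mean of 0.165 in vivo and 0.160 in vitro (n = 526 transcripts with all 20 nucleotides scored). From 71 to 90 nt before the end, the means were 0.226 and 0.164 (n = 768), the widest gap of the 10 stretches nearest the end. Near the start the states were close: from 47 to 66 nt the means were 0.183 in both (n = 577). The transcripts scored in each stretch differed, and the SD of the difference over transcripts lay between 0.110 and 0.150, larger than any of these gaps.

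**Figure D5:**
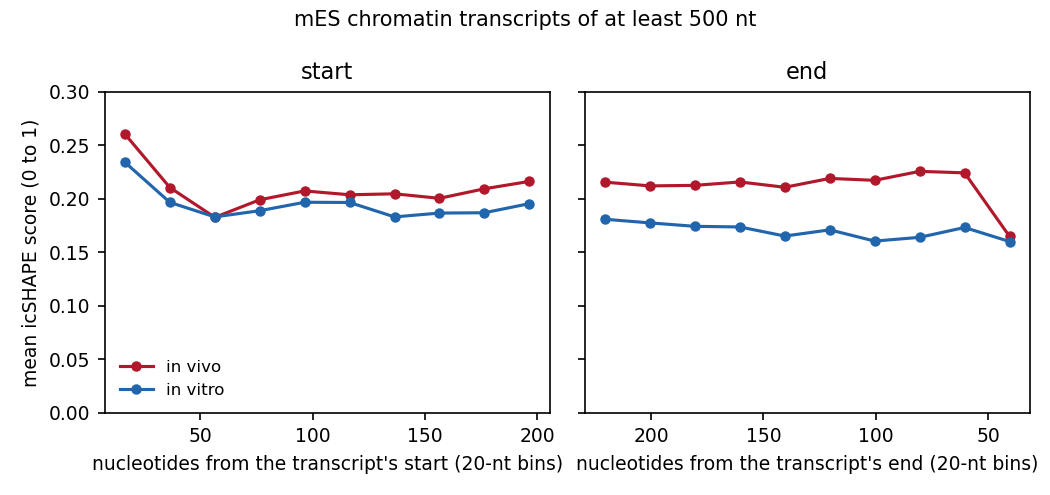
Mean icSHAPE score from 0 to 1 (y axis) in stretches of 20 nt by distance in nucleotides from the start or the end of the transcript (x axes), in vivo and in vitro, in transcripts of at least 500 nt. The states meet near the start (0.183 in both from 47 to 66 nt) and in the last scored stretch (0.165 and 0.160) and are farthest apart from 71 to 90 nt before the end (0.226 and 0.164).

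The gap also varied along the whole length, without a steady trend. Each transcript was divided into 10 equal parts of its length. Over transcripts with at least 20 scored nucleotides in the part, the mean difference was 0.0193 in part 1 and 0.0450 in part 9. In 342 transcripts with all 10 parts scored, it was 0.0398 in part 1 and 0.0596 in part 9, and part 9 exceeded part 1 in 63.5% of them (58.1 to 68.6). Parts 1 and 6 had the narrowest gaps in these transcripts (0.0398 and 0.0405), parts 2 and 3 had 0.0493 and 0.0518, and part 10 had 0.0559 and exceeded part 1 in 57.6% (52.2 to 62.9). In vitro scores in these transcripts averaged 0.220 in part 1 and 0.190 in part 10, and in vivo scores 0.259 and 0.246.

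A period of 3 nt was visible in both states and stronger in cells. In coding sequence, codon positions differ in base composition and pairing, and such a period is a known feature of structure profiles over coding regions. It was measured as the power of the profile at a period of 3 nt over the mean power of 24 neighbouring frequencies. Among 1022 members with at least 500 shared nucleotides, this ratio exceeded 5 in 231 in vivo (22.6%) and in 128 in vitro (12.5%), and it was larger in vivo in 62.7% (59.7 to 65.7). At control frequencies of 0.24 and 0.43 per nt it was larger in vivo in 53.6% and 49.2%. Over all 2072 members, the median share of zeros was 43.2% in vitro and 20.5% in vivo. The part of zeros and of abundance in these ratios was not tested.

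The period had the same phase in both states. Of 114 members above 5 in both files, 100% had phases within 60° of each other, with a median gap of 11.1°. Of 117 above 5 in vivo only, 91.5% did, although the ratio in vitro had a median of only 2.39. Where the ratio was above 5 in neither, 56.6% did, near the 57.1% and 49.8% at the control frequencies. The strongest period was in ENSMUST00000018851, 14342 nt long, with ratios of 102.1 in vivo and 80.2 in vitro. Members with a period above 5 in vivo were higher by score in 92.2% (88.0 to 95.3; n = 231), and the other members of this set in 79.9% (76.9 to 82.6; n = 791); both values come from the same in vivo scores.

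The transcripts on each side of the minimum of 100 scored nucleotides had these values. Just inside were 3 transcripts with 100 shared nucleotides, 1218, 136 and 136 nt long, with means of 0.223, 0.155 and 0.130 in vivo and 0.176, 0.210 and 0.160 in vitro. Just outside were 3 with 99, which were 1036, 135 and 135 nt long, with 0.292, 0.110 and 0.123 in vivo and 0.226, 0.131 and 0.0939 in vitro. The last of these left out was the very abundant ENSMUST00000082965 (55020 in vivo and 53483 in vitro), whose in vivo and in vitro profiles had r = 0.0258.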

How the data were processed

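icSHAPE was done on the chromatin fraction of V6.5 mES cells, 1 sample probed in vivo and 1 in vitro. Fractions were tested by western blot and RT-qPCR, per the series' design text. Each file as deposited by the authors held an identifier, a length, an abundance signal of unstated unit and a score from 0 to 1 or a missing value per nucleotide. The submitters' processing notes name Bowtie2 and UMI-tools and list the builds mm10 and hg38. Not given in the sources used here are the score's formula, scaling and coverage minimum, the annotation and any pooling of replicates.

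Per transcript, scores were averaged over nucleotides scored in both files (minimum 100), as deposited, as mid-ranks over all scored nucleotides of a file, and above 0 in both. Pattern families shared 60 nt of zero and non-zero scores in both files. Scores outside 0 to 1 (3 in another file, mES nucleoplasm in vivo) were treated as missing. Columns with values of unmapped samples numbered 0. Scripts used Python 3.11.15, NumPy 2.4.6, SciPy 1.17.1, pandas 2.3.3 and matplotlib 3.10.9, and were tested on simulated data. Transcripts were named by rule: the 8 most and least different with 1 direction on all scales, the 5 with most scored bases or highest abundance, 3 on each side of the minimum and the 6 widest windows each way, with identifiers printed for a few. The members and rules were chosen with earlier results of these data known. The gene lists intended for this comparison could not be applied without gene names.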

Additional observations from a re-analysis of the deposited data

Results flagged for a closer look

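HEK293 chromatin went the other way from mES chromatin under the same contrast: the median difference in mean score, in vivo minus in vitro, was -0.0182 over 1266 transcripts, beside 0.0264 over the 2072 mES transcripts. By rank, 59.3% of mES nucleoplasm transcripts and 57.1% of mES cytoplasm transcripts were higher in vivo, beside 45.4% in mES chromatin. Over the nucleotides scored in all 6 mES files this order turned, with 75.7% by rank in chromatin, 55.9% in nucleoplasm and 44.9% in cytoplasm. These differences were not tested, since each group has 1 file, and the HEK293 and mES libraries also differed in rRNA removal kit and sequencer, per the labels' protocols. Transcripts also differed between these sets.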

How the results depend on the processing

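No paired analysis was possible because each group has 1 sample, and for the same reason no replicate could be left out. Of 83 alternative values, 23 kept their direction and stayed near the reported value, 47 moved and 13 turned. The cause of these moves was not tested. Ranks within a file cannot show a shift of the file as a whole. Alternatives using scored share, rescaling or a minimum of nucleotides above 0 were chosen after seeing the data.

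The percent of members higher in vivo (66.7 as reported) was 45.4 with ranks, 48.4 above 0 in both files, 52 with at least 100 such nucleotides, 63.6 and 77.9 with minimums of 50 and 300 nucleotides, 85.9 over nucleotides scored in all 6 mES files, 59.2 with abundances within 1.5 times, 60.1 with zero shares matched by setting in vivo scores up to 0.089 to 0, 69.4 without scores of 1, 81.4 by median score, 62.5 with at least 95% of bases scored and 85.8 after rescaling. The median difference (0.0264) was -0.0096 with ranks, -0.00337 above 0, 0.0194 and 0.0394 with the minimums, 0.0637 in all 6 files, 0.0141 with like abundance, 0.0154 with matched zeros and 0.0543 rescaled. The median percent of differing nucleotides higher in vivo (61.6) was 46.7 with ranks, 48.99 above 0, 60.5 and 63.9 with the minimums, 69.3 in all 6 files and 58.5 with like abundance.

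Median r (0.531) was 0.487 as Spearman's rho and 0.470 above 0. The Gini index was higher in vivo in 32.1% above 0, 33.8% with matched zeros and 62.6% with ranks, beside 13.3%. Members at least 1.5 times higher (278) numbered 0 with ranks and 58 above 0, and 159 differed by at least 0.1; of the lower ones (259), 80 did. Downward windows (2.19%) made up 6.33% with ranks and 3.61% at 10 nt.

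By length, the percent higher with ranks was 2.02 under 200 nt, 24.4 from 200, 31 from 350, 47.9 from 1000, 60.8 from 2000 and 79.6 from 5000 nt. Above 0 it was 45.5 under 200 nt, 37.3 from 350, 51.5 from 1000, 54.6 from 2000 and 66.9 from 5000 nt. With at least 95% scored it was 46.4 from 200, 91.5 from 350, 95.2 from 1000, 94.1 from 2000 and 100 from 5000 nt, and rescaled 83.3 from 350, 91.9 from 1000, 94.2 from 2000 and 98.9 from 5000 nt. Under 200 nt it was 48.4 with a minimum of 50 nucleotides. Over the 6 files, ranks gave 75.7 in chromatin (85.9 as reported) and 44.9 in cytoplasm (82.3).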
